A study of Rattus norvegicus with 60 samples.

Results

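The microglia genes described here are 10 genes taken by name from the 22865 genes of the RNA table of rat hippocampal CA1: C1qa, C1qb, C1qc, Csf1r, Cx3cr1, P2ry12, Itgam, Aif1, Plek and Cd180. The first 8 of these were named as textbook markers of microglia, and Plek and Cd180 were chosen by their FPKM, because earlier results of these data had them lower 1 h after threat training than in naive animals. Values that involve threat 1 h or naive libraries are therefore given for Plek and Cd180 as descriptions, with no test. All 10 passed the filter for testing, which asked for at least 1 FPKM (fragments per kilobase of gene, scaled to library depth) in at least 5 libraries and left 13153 genes. Cd180 was the nearest to that limit, with a mean of 1.28 FPKM over the 34 libraries.

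All animals were Sprague-Dawley rats aged 90 to 120 d, and the study compared CA1 after contextual threat recognition training with CA1 of naive rats. RNA was sequenced in 6 threat 24 h, 8 threat 1 h, 5 place 24 h, 6 place 1 h and 9 naive libraries. Methylated DNA, captured with a methyl-binding domain protein (MBD), was sequenced at each of 1 h and 24 h in 3 threat, 4 place and 3 naive libraries, beside 3 libraries of uncaptured input. When naive RNA was taken and what place animals experienced is not labelled. Nor do the labels say that replicates are separate animals, so the p-values cover a spread between samples that may be technical only.

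Microglia are the resident macrophages of the brain, and enter it early in development. They extend motile processes that sense ATP and ADP, depend on signals through the receptor for colony-stimulating factor, and are the main source of C1q in the brain. C1q, made of A, B and C chains, starts the classical complement pathway and is known in mouse to tag synapses for removal by microglia through an integrin receptor for complement.

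The other cell types of the tissue were checked with marker lists. Of 33 further microglia identity and surface genes, 27 passed the filter, and their summed level was 212 to 348 FPKM over all libraries. Averaged over all RNA libraries, 9 of 10 perivascular macrophage markers had a mean under 1 FPKM, and Cd209a was at 0 in all libraries. By the same average 13 of 14 blood leukocyte markers had a mean under 1 FPKM, and Elane was at 0 in all libraries. Ttr, the choroid plexus transcript for transthyretin, reached 6226 and 3700 FPKM in threat 1 h replicates 4 and 7, against at most 255 elsewhere. Place 1 h replicate 3 had the lowest summed level of CA1 pyramidal markers of its group (93.9 FPKM, against 156 to 216 in the other 5). The RNA libraries held 17.7 to 25.7 M reads in genes, as recovered from the FPKM steps. In bulk tissue, fewer cells of a type and less RNA per cell cannot be told apart.

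The starts of 4 members are shown because the C1q genes lie side by side and yet differ in captured methylated DNA, because Csf1r had the strongest capture at its start at 1 h relative to input, and because Cd180 had the largest percent difference in RNA between place 24 h and place 1 h. The sequences are from RefSeq (rat build GRCr8), run from 250 bases before to 50 after the RefSeq gene start, and carry each CG, the dinucleotide in which mammalian DNA is methylated, in capitals. RefSeq's starts can differ from those of the annotation behind the deposited tables. Such sequences were matched for 6 of the 10 members, and not for C1qc, P2ry12, Aif1 and Plek.
C1qa, chr5:154419884-154420183, minus strand: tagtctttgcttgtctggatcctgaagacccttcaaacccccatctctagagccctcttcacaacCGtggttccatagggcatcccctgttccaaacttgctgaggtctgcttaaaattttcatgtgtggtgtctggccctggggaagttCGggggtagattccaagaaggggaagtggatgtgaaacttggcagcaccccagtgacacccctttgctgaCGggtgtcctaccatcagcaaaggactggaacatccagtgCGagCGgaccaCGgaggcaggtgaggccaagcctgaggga
C1qb, chr5:154407778-154408077, minus strand: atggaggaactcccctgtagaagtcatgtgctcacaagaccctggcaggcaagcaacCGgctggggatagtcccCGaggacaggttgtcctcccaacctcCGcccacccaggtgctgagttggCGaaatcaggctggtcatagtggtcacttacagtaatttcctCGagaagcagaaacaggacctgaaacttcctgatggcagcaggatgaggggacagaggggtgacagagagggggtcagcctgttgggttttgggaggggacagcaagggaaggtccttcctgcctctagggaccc
Csf1r, chr18:56834129-56834428, plus strand: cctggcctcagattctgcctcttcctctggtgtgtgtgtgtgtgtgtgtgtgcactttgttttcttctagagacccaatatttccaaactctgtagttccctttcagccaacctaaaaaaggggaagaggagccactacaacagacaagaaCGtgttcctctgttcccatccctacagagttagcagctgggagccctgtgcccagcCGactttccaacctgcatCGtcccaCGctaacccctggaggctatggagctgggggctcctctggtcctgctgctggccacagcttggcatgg
Cd180, chr2:35589680-35589979, plus strand: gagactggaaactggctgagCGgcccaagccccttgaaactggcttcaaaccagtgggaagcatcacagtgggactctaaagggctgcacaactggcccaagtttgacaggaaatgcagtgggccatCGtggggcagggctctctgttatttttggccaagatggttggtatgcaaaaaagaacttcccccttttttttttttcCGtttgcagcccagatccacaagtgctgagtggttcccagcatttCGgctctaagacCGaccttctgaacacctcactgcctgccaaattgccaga
These windows held 6 CG (C1qa), 5 (C1qb), 4 (Csf1r) and 5 (Cd180), and those of Cx3cr1 and Itgam held 4 and 3, against a median of 7 over 33469 rat promoters of the same length. The letters GAGGAA, read on either strand, are the core bound by the myeloid factor PU.1 in many of its sites. They occurred 2 times each in the windows of C1qb, Csf1r and Itgam and not in those of C1qa, Cd180 and Cx3cr1, that is in 3 of 6, while 27.605% of all promoters of this length held them. A match of letters is a description and not a binding site.

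Levels per length differed widely among the members. Averaged over the 34 RNA libraries, C1qa stood at 41.8 FPKM, above 94.3% of all genes in the table. It was followed by C1qb at 23.8, Csf1r at 19.4, C1qc at 12.5, Cx3cr1 at 11.6, Aif1 at 10.6, P2ry12 at 8.13, Itgam at 3.62, Plek at 2.66 and Cd180 at 1.28 FPKM. Cd180 lay above 46.5% of all genes. The A, B and C chain genes of C1q lie on 1 strand of chromosome 5 within 17.671 kb (rn5, the rat build that the positions in the tables follow), with C1qc between C1qb and C1qa and 2618 and 3020 bases between neighbours. Despite this, C1qa mRNA stood 1.47 to 2.14 times as high as C1qb mRNA in every library.

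**Figure D1:**
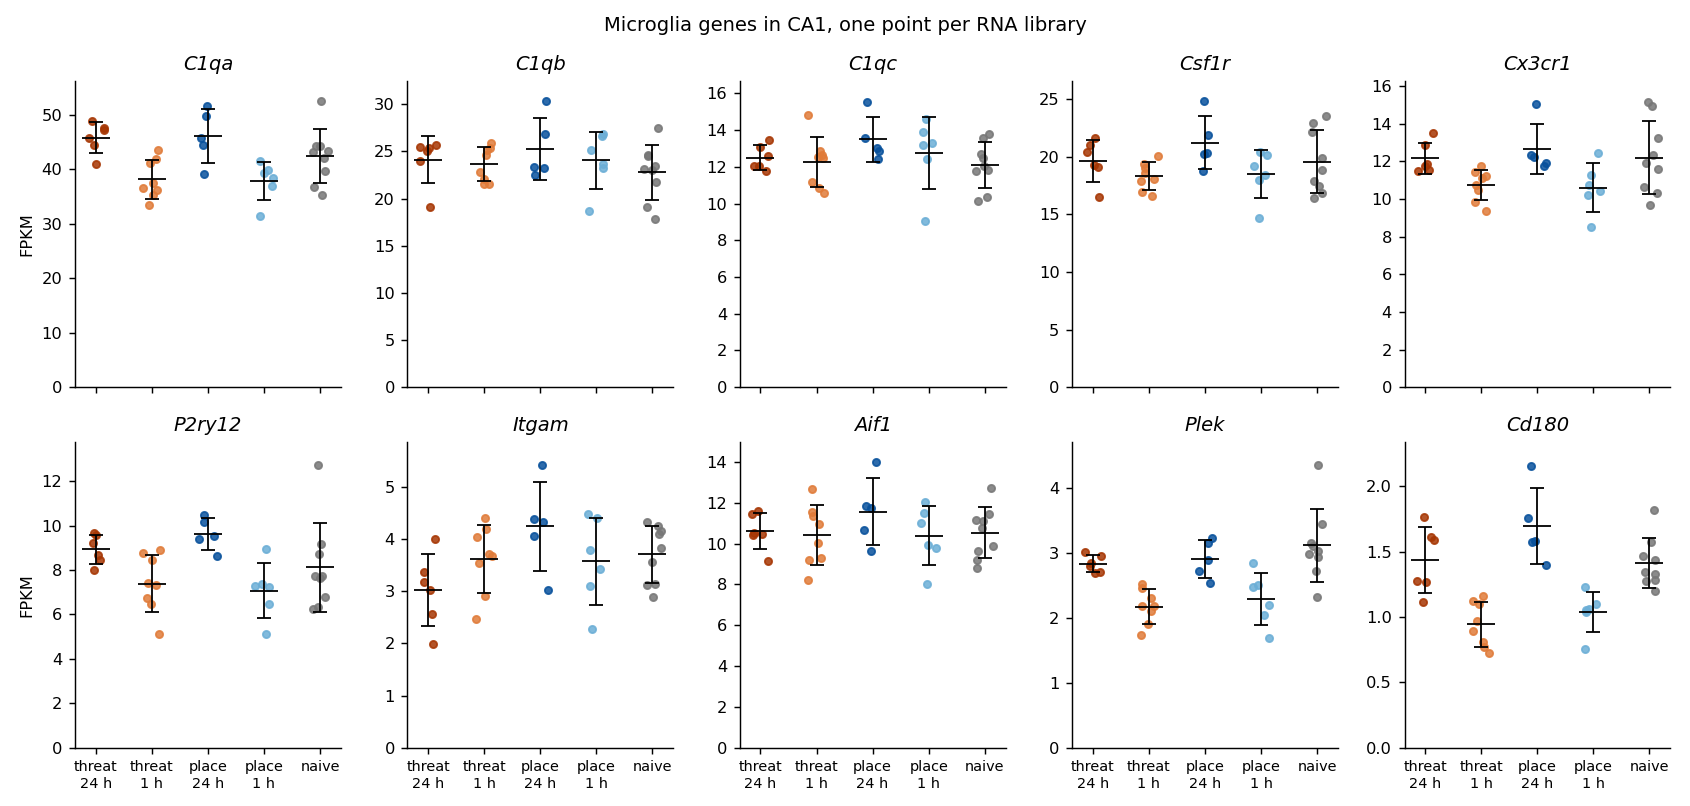
FPKM of the 10 microglia genes (vertical axes, from 0) in threat 24 h, threat 1 h, place 24 h, place 1 h and naive libraries, with 1 point per library and the mean with its SD in black. C1qa, P2ry12, Cx3cr1, Plek and Cd180 sat higher at 24 h than at 1 h in the means of both trained groups, C1qb and C1qc hardly so, and 1 place 24 h library was the highest of its group for all 10 genes.

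Of the 10 genes, 4 were higher in place 24 h than in place 1 h libraries. They were Cd180, C1qa, P2ry12 and Plek, which passed an adjusted p of 0.05 in limma, fitted to log2(FPKM + 1) of all genes with Benjamini-Hochberg adjustment. In that comparison 13.3% of all genes tested passed in either direction, and 6.61% of all genes tested passed as higher at 24 h. C1qa and P2ry12 are among the 8 textbook markers, while Cd180 and Plek are the 2 genes chosen as lower 1 h after threat training. Place 1 h libraries were also below naive for Plek (-0.32 log2) and Cd180 (-0.24 log2). The count of 4 in 10 is therefore not independent of that choice. The median difference over the 8 textbook markers was 0.20 log2, and over all genes it was 0.01.

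Cd180, also known as RP105, is a receptor related to Toll-like receptors that pairs with Ly86 on B cells and macrophages. It stood at 1.57, 2.16, 1.4, 1.76 and 1.58 FPKM in the 5 place 24 h libraries, against 0.757 at the lowest, 1.06 at the median and 1.23 at the highest in the 6 place 1 h libraries. All place 24 h libraries were above all place 1 h libraries. The difference was 0.40 ± 0.08 log2 (SE; adjusted p = 0.00168), and means were 1.69 ± 0.290 FPKM at 24 h and 1.04 ± 0.155 at 1 h (SD, n = 5 and 6), or 63.0% higher. Behind these values lay few reads, 71 to 279 per library over all 34.

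C1qa encodes the A chain of C1q. It stood at 39.1, 51.6, 45.8, 49.7 and 44.6 FPKM in place 24 h libraries, against 31.5, 38.9 and 41.5 FPKM as lowest, median and highest in place 1 h libraries. The groups overlapped, through place 24 h replicate 1, which lay below place 1 h replicates 1, 2 and 4 (41.5, 39.9 and 39.4 FPKM). The difference was 0.27 ± 0.08 log2 (adjusted p = 0.0233), or 21.6% higher in the mean.

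P2ry12 is the purinergic receptor through which microglial processes move toward ADP. Place 24 h libraries held 9.41, 10.5, 8.61, 10.1 and 9.51 FPKM, against 5.12, 7.24 and 8.92 FPKM as lowest, median and highest in place 1 h libraries. Only the highest place 1 h library, replicate 1, reached into the place 24 h range. The difference was 0.41 ± 0.13 log2 (adjusted p = 0.0291), or 36.2% higher.

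Plek is pleckstrin, a protein kinase C substrate of blood and myeloid cells. It stood at 2.53, 3.22, 2.89, 3.15 and 2.71 FPKM in place 24 h libraries, against 1.68, 2.33 and 2.83 FPKM as lowest, median and highest in place 1 h libraries. The groups overlapped, and the difference of 0.25 ± 0.09 log2 lay at the threshold (adjusted p = 0.0489).

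The other 6 genes did not pass in the same comparison. Cx3cr1, the receptor for the neuronal chemokine fractalkine, averaged 12.7 ± 1.35 FPKM in place 24 h and 10.6 ± 1.30 in place 1 h libraries (0.24 ± 0.09 log2; adjusted p = 0.0715). Csf1r, the receptor for CSF1 and IL34 on which microglia depend for survival, averaged 21.2 ± 2.30 and 18.5 ± 2.08 FPKM in place 24 h and place 1 h libraries (0.19 ± 0.09 log2; adjusted p = 0.146). Itgam and Aif1 had differences of 0.20 and 0.14 log2, and C1qb and C1qc of 0.07 and 0.09, with adjusted p from 0.328 to 0.676.

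These counts rest on single libraries. Place 1 h replicate 3 was the lowest place 1 h library for 9 of the 10 genes (all but Itgam), and place 24 h replicate 2 the highest of its group for all 10. Without either of them, or without place 24 h replicate 4, Cd180 alone passed, and without place 1 h replicate 2 or place 24 h replicate 5 it was Cd180 and C1qa. Cd180 passed under all 18 other settings run (adjusted p 0.00116 to 0.00863, with differences of 0.34 to 0.65 log2, the highest with a pseudocount of 0.1), C1qa in 15 of 19, P2ry12 in 14 of 19 and Plek in 6 of 18. The labels give no preparation or sequencing date, so time after training and any difference in handling between the 1 h and 24 h libraries cannot be told apart.

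Markers of red blood cells also differed in this comparison. All 4 red blood cell genes tested passed as higher in place 24 h than in place 1 h libraries, where 6.61% of all genes did. Hbb stood at 101 ± 41.9 FPKM in place 24 h, against 55.9 ± 12.2 in place 1 h libraries (limma adjusted p = 0.0191). The summed level of the red blood cell list was 193 to 554 FPKM (median 278) in place 24 h and 140 to 235 FPKM (median 167) in place 1 h libraries. Its median was 273 FPKM in naive, 304 in threat 1 h and 324 in threat 24 h libraries, so that place 1 h had the lowest median of all groups. Blood leukocyte markers summed to 4.95 to 14.2 FPKM (median 10.1) and 5.07 to 10.8 FPKM (median 8.67) in place 24 h and place 1 h libraries, and perivascular macrophage markers to 2.67 to 4.37 FPKM and 3.49 to 4.60 FPKM. In threat 24 h against threat 1 h libraries 0 of the 4 red blood cell genes passed, where 29.3% of all genes did. All 12 endothelial and mural markers had differences below 0 between 24 h and 1 h in both trained groups. Their medians were -0.28 log2 in threat and -0.17 in place. In threat 8 passed as lower, where 16.8% of all genes did, and in place 2, where 874 of all 13153 genes did. Of 12 oligodendrocyte markers 10 had differences above 0 in place, with a median of 0.17 log2, and 0 passed, where 13.3% of all genes did. In threat 7 of the 12 were above 0, with a median of 0.03 log2. There Mbp alone passed, as lower (-0.43 log2, adjusted p = 0.0333). Of 10 astrocyte markers Slc1a2, the glutamate transporter of astrocytes, passed as lower at 24 h in both trained groups (-0.43 log2 in each). In threat Aldh1l1 also passed as lower (-0.23 log2, adjusted p = 0.0388) and Sox9 as higher (0.27, 0.0393). The medians of the 10 were -0.06 log2 in threat and -0.02 in place. Dab2, 1 of 2 perivascular macrophage markers tested, passed as lower in threat (-0.46 log2, adjusted p = 0.0134). The part of these cell types in the results was not tested.

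In threat libraries, where Plek and Cd180 were not tested, C1qa alone of the 8 textbook markers passed as higher at 24 h than at 1 h, and of the same 8 markers 2 had passed in place libraries. Of all genes 29.3% passed between threat 24 h and threat 1 h, and 12.5% did so as higher, so that 1 of 8 is the share of all genes. C1qa stood at 41.0, 46.6 and 48.9 FPKM as lowest, median and highest of the 6 threat 24 h libraries, against 33.4, 37.0 and 43.6 FPKM in the 8 threat 1 h libraries. The groups overlapped, and all 6 threat 24 h values were above the threat 1 h median. The difference was 0.26 ± 0.07 log2 (limma adjusted p = 0.00775), 19.9% higher in the mean, and passed in all 23 other settings run (adjusted p 0.00357 to 0.0442).

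P2ry12 averaged 8.93 ± 0.660 FPKM in threat 24 h and 7.39 ± 1.29 in threat 1 h libraries (0.26 ± 0.11 log2; adjusted p = 0.0843), and Cx3cr1 12.2 ± 0.823 and 10.7 ± 0.815 FPKM (0.17 ± 0.08 log2; adjusted p = 0.115). Both passed when the threat libraries were fitted alone (adjusted p = 0.0476 and 0.0242). That made 3 of 8, and the share of all genes that passed in that fit is not given here. Itgam, the alpha M chain of an integrin that binds complement, was the 1 gene with a lower mean at 24 h: 3.02 ± 0.691 FPKM in threat 24 h and 3.62 ± 0.654 in threat 1 h libraries (-0.21 ± 0.12 log2; adjusted p = 0.192). Plek and Cd180, for which the choice used threat 1 h, are described only. Plek stood at 2.69 to 3.01 FPKM in threat 24 h libraries, all above the 1.73 to 2.51 FPKM of threat 1 h libraries (0.28 log2). Cd180 stood at 1.12 to 1.77 FPKM in threat 24 h and 0.728 to 1.16 FPKM in threat 1 h libraries, which overlapped (0.33 log2).

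The change with time did not pass as different between threat and place for any of the 8 genes (limma interaction, adjusted p = 0.9997 for each, 0.0% of all genes called). Below 0.05 before adjustment there was 1, Itgam (-0.41 ± 0.18 log2), against 360 of all 13153 genes.

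**Figure D2:**
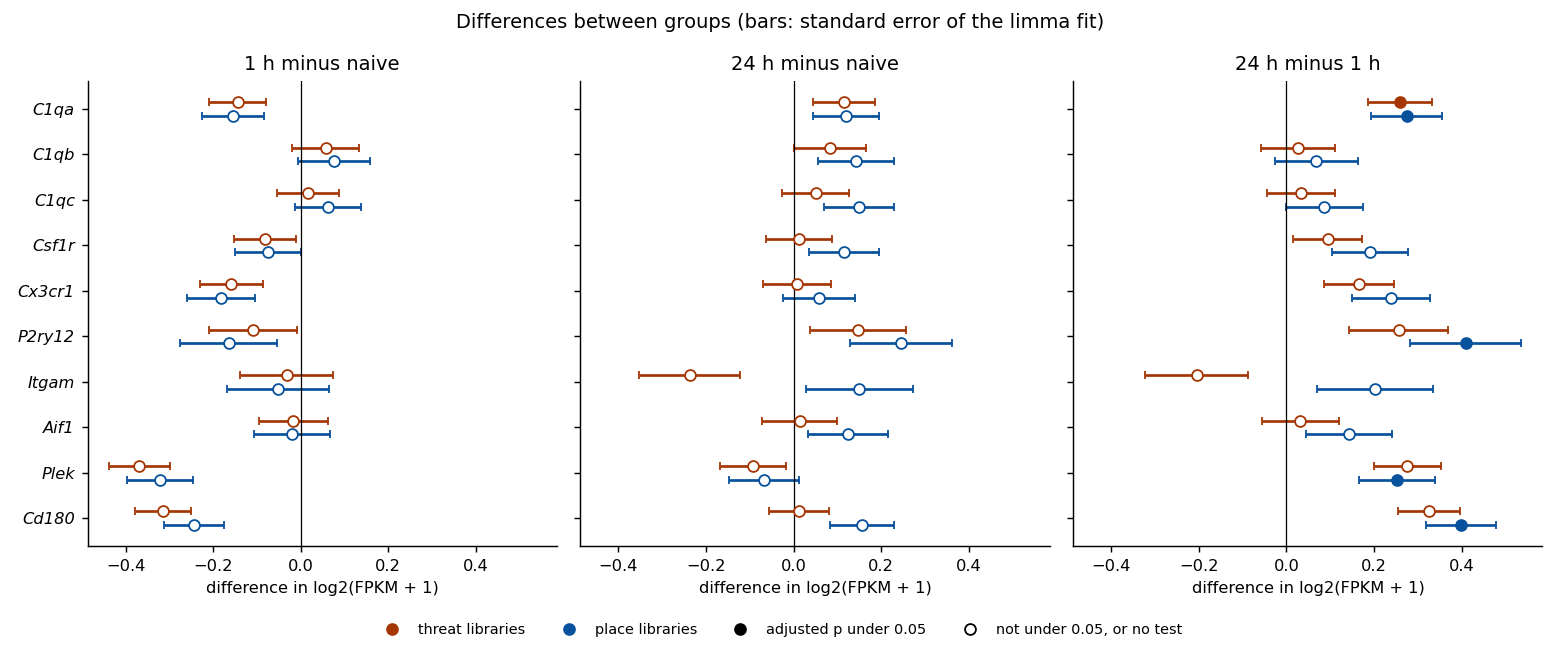
Differences in log2(FPKM + 1) with their limma standard errors for the 10 genes, for 1 h minus naive, 24 h minus naive and 24 h minus 1 h, with threat in brown above place in blue. Filled points passed an adjusted p of 0.05: C1qa in both trained groups and P2ry12, Plek and Cd180 in place, all in the 24 h minus 1 h panel; open points did not pass or, for Plek and Cd180 wherever threat 1 h or naive libraries enter, were not tested.

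The C1q chains changed unequally between the times. C1qb averaged 24.1 ± 2.50 FPKM in threat 24 h and 23.6 ± 1.81 in threat 1 h libraries (0.03 ± 0.08 log2), and C1qc 12.5 ± 0.662 and 12.2 ± 1.36 FPKM (0.03 ± 0.08 log2). The ratio of C1qa to C1qb within a library needs no scaling between libraries. It was formed after these values had been seen, as 1 of 4 comparisons over C1qb and C1qc and both trained groups, so its p-values are not independent of that choice. C1qa over C1qb was 1.80, 1.86 and 2.14 as lowest, median and highest in threat 24 h libraries, against 1.51, 1.62 and 1.73 in threat 1 h libraries, without overlap (exact 2-sided permutation test, p = 0.000666, adjusted over 4 to 0.00133). In place 24 h libraries it was 1.68, 1.70, 1.97, 1.86 and 1.98, against 1.47, 1.57 and 1.69 in place 1 h libraries, where 1 place 1 h library lay above the lowest place 24 h library (exact p = 0.00866, adjusted 0.0115).

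C1qa over C1qc behaved likewise, at 3.48 to 3.88 in threat 24 h and 2.78 to 3.47 in threat 1 h libraries (exact p = 0.000666, adjusted 0.00133). It was 2.995 to 3.66 in place 24 h and 2.74 to 3.48 in place 1 h libraries (exact p = 0.0303, adjusted 0.0303), a difference that did not pass without place 24 h replicate 3, 4 or 5 or without place 1 h replicate 2 (p = 0.0556 to 0.0667). Naive libraries spanned both times: C1qa over C1qb was 1.83 to 2.13 in naive libraries 5 to 9 and 1.62 to 1.86 in naive libraries 1 to 4. C1qa over C1qc was 3.55 to 4.18 in naive libraries 5 to 9 and 2.98 to 3.31 in naive libraries 1 to 4, without overlap. These are the blocks in which the table lists the naive columns, and the labels do not call them batches. Their part in either ratio was not tested.

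**Figure D3:**
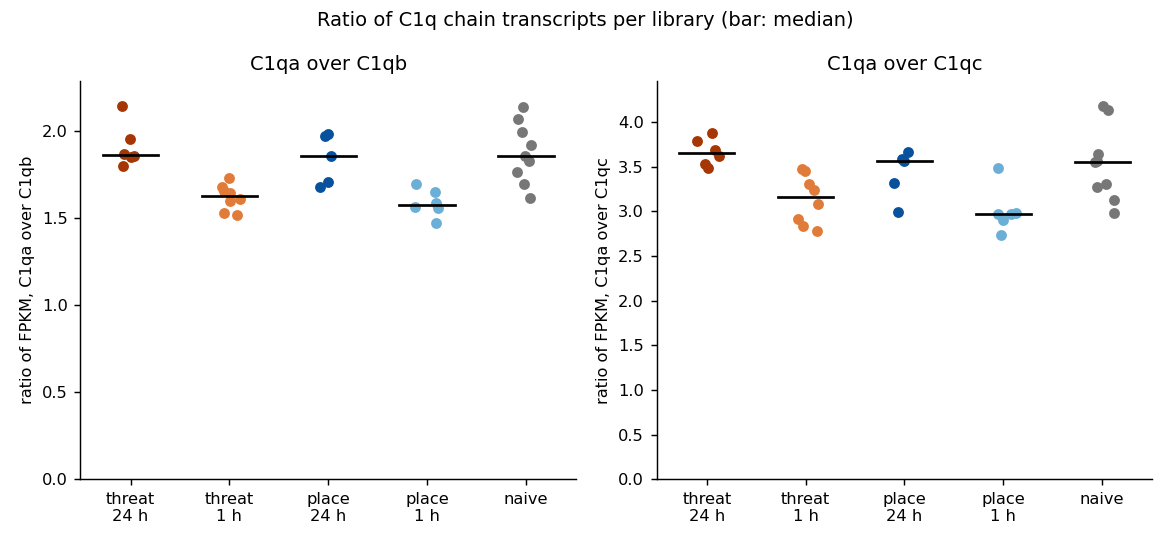
Ratio of C1qa to C1qb (left) and of C1qa to C1qc (right) in each RNA library, from FPKM, with the median of each group as a bar and vertical axes from 0. C1qa over C1qb is 1.80 to 2.14 in threat 24 h and 1.51 to 1.73 in threat 1 h libraries, and naive libraries reach across both ranges.

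Against naive libraries no textbook marker passed 1 h after training. At 1 h after threat training 0.928% of all genes passed in limma, and 0 of the 8. C1qa and Cx3cr1 (2 genes) were below 0.05 before adjustment, as were 2120 of all 13153 genes. At 1 h after place training 0.129% of all genes passed, and again 0 of the 8. The same 2 were below 0.05 before adjustment, as were 1284 of all 13153 genes. Both comparisons use the same naive libraries. Cx3cr1 stood at 9.38, 10.9 and 11.8 FPKM as lowest, median and highest in threat 1 h and 8.50, 10.6 and 12.4 FPKM in place 1 h libraries, against 9.70, 11.9 and 15.2 FPKM in naive libraries. Its differences from naive were -0.16 ± 0.07 log2 in threat 1 h (adjusted p = 0.270) and -0.18 ± 0.08 in place 1 h (adjusted p = 0.418). C1qa differed by -0.14 ± 0.07 and -0.15 ± 0.07 log2 from naive in threat 1 h and place 1 h libraries (adjusted p = 0.271 and 0.473).

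Plek and Cd180 had their lowest levels 1 h after training, in both trained groups. Plek stood at 1.73, 2.18 and 2.51 FPKM as lowest, median and highest in threat 1 h and 1.68, 2.33 and 2.83 FPKM in place 1 h libraries, against 2.32, 3.02 and 4.35 FPKM in naive libraries. Cd180 stood at 0.728, 0.928 and 1.16 FPKM in threat 1 h and 0.757, 1.06 and 1.23 FPKM in place 1 h libraries, against 1.20, 1.34 and 1.82 FPKM in naive libraries. For Cd180 threat 1 h and naive libraries, which were used to choose it, did not overlap. The differences from naive were -0.37 and -0.31 log2 in threat 1 h for Plek and Cd180, the values that chose them, and -0.32 and -0.24 log2 in place 1 h. The pseudocount of 1 shrinks these differences more for Cd180. In the means they were -30.3% and -33.3% in threat 1 h and -26.4% and -26.5% in place 1 h.

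At 24 h, likewise, no textbook marker passed against naive libraries. In threat 24 h against naive libraries 10.1% of all genes passed and 0 of the 8. Itgam was the 1 marker below 0.05 before adjustment (-0.24 ± 0.12 log2), against 3448 of all 13153 genes. In place 24 h against naive libraries 5.05% of all genes passed and 0 of the 8. There P2ry12 was the 1 marker below 0.05 before adjustment (0.25 ± 0.12 log2, adjusted p = 0.211), against 2878 of all 13153 genes. P2ry12 passed when naive libraries 1 to 4 alone were used (0.33 log2, adjusted p = 0.047) and without naive replicate 6 (0.32 log2, adjusted p = 0.0422), which held 12.7 FPKM, against 6.23 to 9.18 in the other 8. Plek and Cd180 stood at 2.83 ± 0.130 and 1.44 ± 0.253 FPKM in threat 24 h, at 2.90 ± 0.291 and 1.69 ± 0.290 FPKM in place 24 h and at 3.11 ± 0.557 and 1.41 ± 0.190 FPKM in naive libraries.

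Threat and place did not differ past the threshold in any of these genes. At 24 h 0 of 10 passed in limma, as for all genes (0.0%). Itgam was the 1 member below 0.05 before adjustment, against 381 of all 13153 genes. Itgam stood at 1.98, 3.10 and 4.0 FPKM as lowest, median and highest in threat 24 h libraries, against 4.33, 5.42, 4.40, 3.03 and 4.06 FPKM in place 24 h libraries, and all 6 threat values lay below the place median (-0.39 ± 0.13 log2; adjusted p = 0.9998). At 1 h 0 of 8 passed in limma (0.0% of all genes), with differences from -0.05 to 0.06 log2. Before adjustment 0 of the 8 were below 0.05, against 560 of all 13153 genes. Of the 5 group means, that of place 24 h libraries was the highest for 9 of the 10 genes, and for Plek it was that of naive libraries. Place 24 h replicate 2 was the highest of its group for all 10, and the share over all genes is not given here.

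Genes that work with the members showed few calls. Of 13 ligands and partners, among them Csf1, Il34, Cx3cl1 and Itgb2, 11 were tested, and 0 passed in limma in any of the 8 comparisons. Of 12 tested complement genes, 3 were lower in threat 24 h than in threat 1 h libraries, where 16.8% of all genes passed as lower: Cfp, the activator properdin (-0.41 log2, adjusted p = 0.015), Vtn, which blocks the terminal complex (-0.29, 0.0242), and Csmd1, a membrane inhibitor made by neurons (-0.16, 0.0409). Vtn and Cfp were also lower in threat 24 h than in naive libraries (-0.34 and -0.40 log2, adjusted p = 0.0201 and 0.0391). Vtn is also on the list of endothelial and mural markers, 8 of which were lower in threat 24 h than in threat 1 h libraries. Between place 24 h and place 1 h 0 of the 12 passed. Of the 27 microglia identity genes tested, 4 were higher in place 24 h than in place 1 h libraries, where 6.61% of all genes were, among them Tlr2 (0.36 log2, adjusted p = 0.00148), Gpr34 (0.49, 0.00289) and Cd53 (0.30, 0.0106). In threat 24 h against threat 1 h libraries 3 of the 27 were higher, Tlr2 (0.23, 0.00755), Gpr34 (0.31, 0.0129) and Cd33 (0.23, 0.0404), and 0 were lower in either. The 3 of 27 in threat are no larger a share than the 12.5% of all genes called higher there. Their medians were 0.09 log2 in place and 0.05 in threat, against 0.01 and -0.01 over all genes.

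Of 13 tested genes of myeloid signalling and the cytoskeleton, Lcp1, the actin bundler L-plastin, alone passed, higher at 24 h in both trained groups (0.53 log2 in threat, adjusted p = 0.00136, and 0.43 in place, 0.0304). It is 1 of 13, where 12.5% of all genes passed as higher in threat and 6.61% in place. Of 9 tested microglia transcription factors, among them Spi1, Irf8 and Mef2c, 0 passed in any comparison. Of 10 tested genes of activation and cytokines, Nfkbia (-0.45 log2, adjusted p = 0.00706), Nfkb1 (-0.18, 0.00717) and Axl (-0.20, 0.0313) were lower in threat 24 h than in threat 1 h libraries, where 16.8% of all genes were. Averaged over all RNA libraries, 22 of the 30 genes of that list had a mean under 1 FPKM.

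The 10 genes varied together between libraries of the same group, Itgam least. After each group's mean was removed, the 21 pairs among the 7 textbook markers other than Itgam had Pearson correlations of 0.49 to 0.84 (median 0.67), over 34 libraries. The highest was that of C1qb with Csf1r. The libraries differed in tissue composition and depth, and the part of either in these correlations was not tested. The 7 pairs with Itgam had correlations of -0.02 to 0.31. Plek and Cd180 correlated with the mean standardised level of the 8 textbook markers at 0.57 and 0.59, and with each other at 0.45. Outside the members, the genes most like that mean level were Ctss (0.88), a lysosomal protease that microglia express strongly, Anxa3 (0.87), Tmem176a (0.87), Laptm5 (0.84), Tmem176b (0.84), Slco2b1 (0.84), Sall1 (0.84), the transcription factor that marks microglial identity in mouse, Ptafr (0.82), Nckap1l (0.82) and Snf8 (0.80). The summed level of the 10 members ran from 101 FPKM in place 1 h replicate 3 to 173 FPKM in place 24 h replicate 2.

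Captured methylated DNA was measured as RPKM (reads per kilobase, scaled to library depth) in bins of 500 nt, and averaged over each gene. At 1 h, the gene bodies of P2ry12, C1qc, C1qa, C1qb, Itgam, Cx3cr1 and Plek were captured above input in all 10 libraries, at 3.25, 2.49, 2.06, 1.70, 1.62, 1.59 and 1.18 times input in the mean, against a median of 1.03 over all genes. Csf1r and Cd180 stood at 1.09 times input and Aif1 at 0.444 times. P2ry12 held 1.19, 1.04 and 1.04 RPKM in threat, 1.22, 0.959, 0.938 and 1.11 RPKM in place and 0.900, 0.832 and 0.825 RPKM in naive captured libraries, against 0.319, 0.300 and 0.309 RPKM in input. At 24 h P2ry12 was again the most captured body, at 2.34 times input, above 94.2% of all genes.

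Gene starts, taken as 1000 bases before to 500 after, gave another order. At 1 h Csf1r, C1qb, Itgam and Plek stood at 2.36, 2.20, 1.97 and 1.77 times input, while the starts of C1qa and C1qc lay below input in all 10 libraries, at 0.704 and 0.63 times. The median over all genes was 0.272. The C1qb start held 0.930, 0.832 and 0.823 RPKM in threat, 0.950, 0.759, 0.960 and 0.850 RPKM in place and 0.978, 1.03 and 1.12 RPKM in naive captured libraries, against 0.365, 0.495 and 0.400 RPKM in input. The C1qa start held 0.339, 0.335 and 0.262 RPKM in threat, 0.249, 0.333, 0.450 and 0.358 RPKM in place and 0.419, 0.404 and 0.251 RPKM in naive captured libraries, against 0.515, 0.474 and 0.460 RPKM in input. The C1qa start was thus less captured than the C1qb start. The DNA came from CA1 tissue, so the cell types behind these values cannot be told apart. A relation of capture to RNA level was not tested. In the 24 h libraries the C1qb start stood again above the C1qa start, with 1.67 times input at the C1qb start and 0.916 at the C1qa start, which then overlapped its input.

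**Figure D4:**
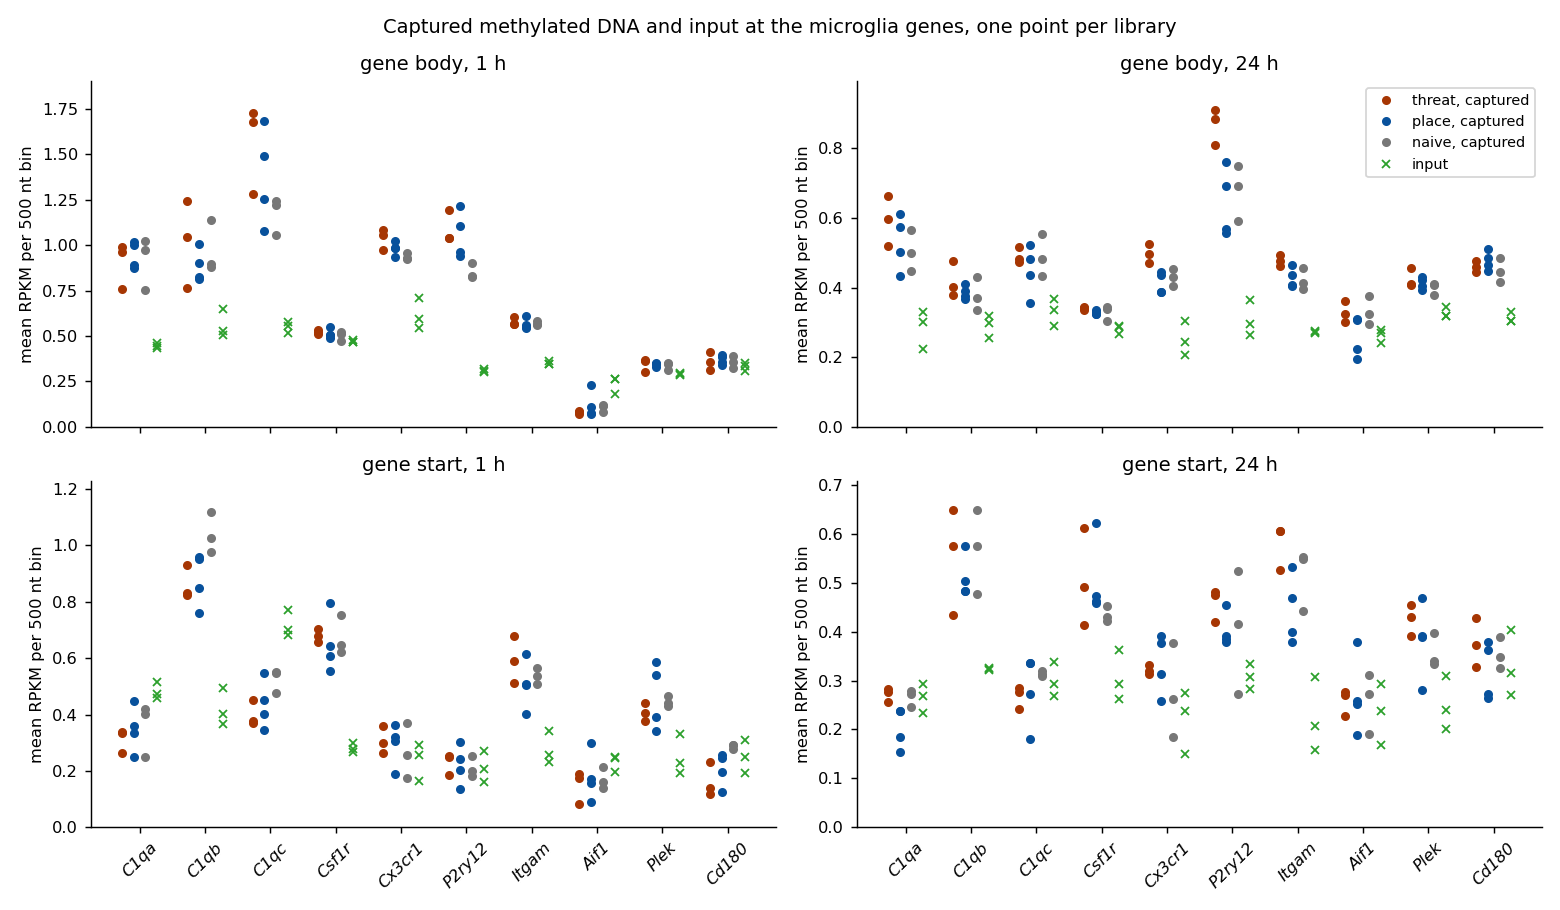
Mean RPKM of captured methylated DNA in threat, place and naive libraries (points) and of input (crosses) over the gene body (top) and the gene start (bottom) of the 10 genes, at 1 h (left) and 24 h (right), 1 mark per library. P2ry12 bodies lie far above input at both times, C1qb starts above input and C1qa starts at 1 h below it, while threat, place and naive points mostly overlap.

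Averaged over the gene body or the gene start, no member passed between groups in captured DNA by limma. Over the gene body 0 of 10 passed at 1 h. Of all genes 0.0054% passed between threat and naive, 0.0% between place and naive and 0.0% between threat and place, with 3, 1 and 0 members below 0.05 before adjustment, against 2279, 664 and 1761 of all 18522 genes. At 24 h 0 of 10 passed in the same comparisons, with 0.0% of all genes, and 3, 0 and 3 members were below 0.05 before adjustment, against 4208, 918 and 5555 of all 21077 genes. The 3 between threat and place were Cx3cr1 (0.17 ± 0.04 log2, adjusted p = 0.1001), P2ry12 (0.33 ± 0.09, 0.101) and Itgam (0.10 ± 0.04, 0.176). The median difference there was 0.03 log2 over all gene bodies, and 0.28 log2 over the strongly captured single bins described below. P2ry12 held 0.882, 0.808 and 0.909 RPKM in threat, 0.691, 0.759, 0.568 and 0.557 RPKM in place and 0.690, 0.749 and 0.592 RPKM in naive libraries at 24 h, so that the 3 threat libraries lay above the others. Over the gene start 0 of 10 passed in the 6 comparisons, in which 0.0% to 0.00946% of all genes passed, with 2 members below 0.05 before adjustment in all. Those were Cd180 in threat against naive at 1 h (-0.39 ± 0.16 log2, adjusted p = 0.341) and Itgam in threat against place at 24 h (0.26 ± 0.12 log2, adjusted p = 0.336). In those 2 comparisons 1260 of all 10566 and 1851 of all 14346 genes were below 0.05 before adjustment.

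Single bins were tested where captured RPKM averaged at least 1 and 2 times input, which left 45 bins in 9 of the genes at 1 h and 8 bins in 6 genes at 24 h. Over the whole genome these limits left 350378 bins at 1 h and 85335 at 24 h. At 1 h 0 of the 45 passed. Of all bins 0.016% passed between threat and naive, 0.00285% between place and naive and 0.0174% between threat and place. Before adjustment 10, 3 and 2 member bins were below 0.05, against 53954, 11719 and 34980 of all 350378 bins. At 24 h 0 of 8 passed against naive, for threat or place (0.0105% and 0.0082% of all bins). Before adjustment 2 and 0 of the 8 were below 0.05, against 19688 and 3649 of all 85335 bins. In threat against place 1 of 8 passed, where 7.7% of all bins did. Below 0.05 before adjustment were 6 of the 8, and 31656 of all 85335 bins. The bin that passed lies in P2ry12 at chr2:168874001-168874500 (rn5), with its centre 2552.5 bases from the gene start, and held 1.52, 1.28 and 1.76 RPKM in threat, against 1.12, 1.18, 0.700 and 0.796 RPKM in place libraries (0.58 ± 0.17 log2, adjusted p = 0.0397). All bins together were shifted by a median of 0.28 log2 in the same direction, and after median-ratio scaling the bin differed by 0.31 log2 and did not pass (adjusted p = 0.879). It rested on 21 to 62 reads per library, and did not pass without any 1 of the 3 threat libraries, or of place replicates 3 and 4.

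**Figure D5:**
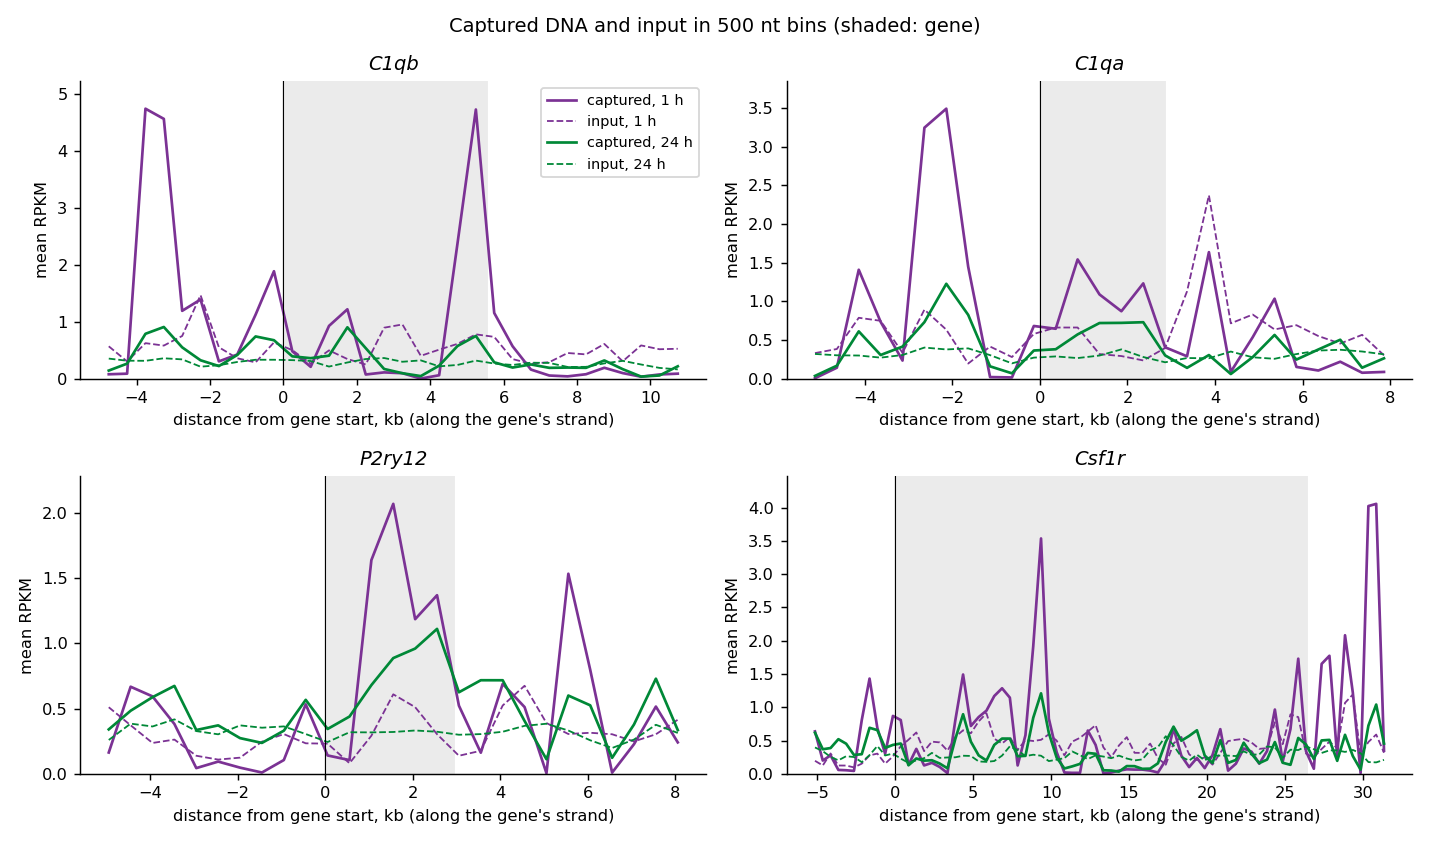
Mean RPKM of the 10 captured libraries (solid) and the 3 input libraries (dashed) in 500 nt bins from 5 kb before to 5 kb past C1qb, C1qa, P2ry12 and Csf1r (shaded), at 1 h (purple) and 24 h (green), by distance from the gene start along the gene's strand. Capture is uneven, with bins of 4.72 RPKM near the end of C1qb and 3.54 RPKM inside Csf1r at 1 h, and the captured peaks are lower at 24 h, the highest in Csf1r in the same bin. Fewer bins met the capture limits for single-bin tests at 24 h over the whole genome too, 85335 against 350378 at 1 h, and the cause was not tested.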

How the data were processed

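RNA and captured methylated DNA of rat CA1 were analysed as deposited. The authors' FPKM per gene come from directional polyA+ libraries of RNA with an integrity number above 8, per the labels' protocols. The authors' RPKM per bin of 500 nt come from DNA captured with a methyl-binding domain protein, and from input. Builds mm10 and rn5 and the tools Bowtie, TopHat 1.4.0, edgeR and DESeq2 are listed, with no role, per the submitters' processing notes. The tables are named for a mouse build, but gene IDs are of rat and chromosome 1 ends at base 290094216, so positions were read as rn5.

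The members and gene lists were chosen with earlier results of these data known. Named genes were the members, the called genes of the biological lists, except 1 that is counted but not reported here, and the 10 genes most like the mean level of the textbook markers. Each RNA comparison came from 1 limma 3.58.1 fit (R 4.3.3, trend) of log2(FPKM + 1) over 5 groups and 34 libraries, with 29 residual degrees of freedom. Captured DNA was fitted with limma on log2(RPKM + 0.25), at each time over its 10 captured libraries, for genes averaging at least 0.1 RPKM. The 1 h and 24 h tables were tested separately. P-values were adjusted by Benjamini-Hochberg over all genes or bins, with a threshold of 0.05.

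FPKM came out as whole reads for 99.37% of tested genes (within 0.05 reads), and RPKM for 100% of values (within 0.1 reads). Captured libraries held 39.3 to 44.7 M reads at 1 h and 52.8 to 73.2 M at 24 h, and input 46.6 to 49.9 M and 63.1 to 74.5 M. Ratios used exact permutation tests in SciPy 1.17.1. The fits were tested on simulated data. Other alternatives changed the pseudocount, the filter, the scaling, the libraries and a replicate block.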

Additional observations from a re-analysis of the deposited data

Results flagged for a closer look

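In 6 of the 90 groups of 4 to 10 libraries checked, 1 library stood far from the others, where chance gives about 1 in 20. C1qb was lowest in threat 24 h replicate 1, at 19.1 FPKM, against 24.0 to 25.6 in the other 5. P2ry12 was highest in naive replicate 6, at 12.7 FPKM, against 6.23 to 9.18 in the other 8. Cx3cr1 was highest in place 24 h replicate 2, at 15.04 FPKM, against 11.8 to 12.3 in the other 4. Among captured libraries, the Plek gene body was lowest in place 1 h replicate 4, at 0.329 RPKM, against 0.347 to 0.350. Place 24 h replicate 1 was highest at the starts of both P2ry12, at 0.454 RPKM against 0.379 to 0.391, and Csf1r, at 0.622 RPKM against 0.457 to 0.474. No cause was tested for any of these.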

How the results depend on the processing

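No result changed direction past its threshold. Most counts of called members were 0 and stayed 0, which says little about stability; those that moved by over 1.5 times are given here. For place 24 h against place 1 h the 4 called members became 2 with a filter of 5 FPKM, which Cd180, Plek and Itgam do not reach by construction, and 1 to 5 without 1 library. With a replicate block there were still 4, Plek being lost (adjusted p = 0.0639) and Cx3cr1 gained (0.26 log2, adjusted p = 0.0333). For threat 24 h against threat 1 h the 1 became 3 with only the groups compared. For place 24 h against naive the 0 became 1 with naive libraries 1 to 4 only, and 0 to 1 without 1 library. In captured DNA at 24 h, threat against place, the 1 called bin became 0 with median-ratio scaling, 2 with a replicate block, and 0 to 6 without 1 library. For threat against naive the 0 bins became 1 at 24 h with a replicate block, and 0 to 4 at 1 h without 1 library (4 without threat replicate 3). The shares of all genes or bins under these other settings are not given, and the causes were not tested. Replicate numbers were not taken as pairs: same-numbered RNA libraries had a median correlation of deviations of -0.043 over 58 pairs, against 0.0028 over 399 other pairs. Depth limits Cd180 most, with a median of 143.5 reads per library, and its difference between threat 1 h and naive was -0.31 log2, against -0.55 with a pseudocount of 0.1. A count model (edgeR) of the reads recovered from RPKM, planned, and from FPKM, added after seeing the data, was run and then set aside, since the deposited values are not counts, and its values are not given. It called fewer members than limma for place 24 h against place 1 h and, unlike limma, called the P2ry12 gene body for threat against place at 24 h. The share of all genes that it called is not given here, so these calls are not read as results about the members.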
